A study of Mus musculus with 12 samples.

Results

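The genes described here encode the proteins of the cytosolic ribosome. They were taken from the deposited gene table as protein-coding rows whose symbol starts with Rpl or Rps and a digit, together with Rpsa, Rplp0, Rplp1 and Rplp2, and without Rps6k kinases or names ending in -ps. The rule found 94 of 54532 rows. Of these, 46 encode proteins of the large subunit and 31 proteins of the small subunit. A further 9 are intronless or pseudogene-like copies annotated as protein-coding (Rps27rt and 8 rows whose names end in -ps and a number). Another 6 are named as paralogs (Rpl3l, Rpl10l, Rpl22l1, Rpl36al, Rpl39l and Rps27l), and 2 encode no subunit protein. The last are Rps19bp1, a binding partner of Rps19, and Rpl7l1, a nucleolar protein. The filter on low values (0.1 FPKM or more in 3 libraries or more) passed 89 of the 94 rows. The 5 that failed were Rpl10l, Rpl39l, Rpl9-ps1, Rpl13a-ps1 and Rpl36-ps4, of which all but Rpl39l were at 0 FPKM in every library.

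RNA of whole colon of C57BL/6N mice was sequenced in 12 libraries, 4 groups of 3. The Tmem173fl/fl groups, labelled WT, have a floxed Tmem173 gene, which encodes STING, without Cre. The Tmem173iΔmye groups, labelled CRE, add the Lyz2-CreERT2 transgene, which becomes active with tamoxifen in myeloid cells such as macrophages and neutrophils, so most RNA of the tissue comes from cells in which the gene is not deleted. Both genotypes received 5 tamoxifen injections, and colitis was induced at an age of 6 to 8 weeks. One group of each genotype was given dextran sulfate sodium (DSS), a polymer that damages the epithelium, in the drinking water for 7 days and plain water for 1 day, and the other was given only water. The replicates are numbered 1, 2 and 3, and in colitic Tmem173iΔmye mice 1, 2 and 5. Library totals ran from 13823237 to 18718915 counts. The libraries were of mixed sex. Untreated replicate 3 of either genotype and colitic Tmem173iΔmye replicate 5 had Xist at 1225 to 1839 CPM (counts per 1e6 after TMM scaling) and 4 Y-linked genes at 0 CPM, and the other 9 had Xist at 0.203 to 0.545 and the Y-linked genes at 199 to 316 CPM in sum. All colitic Tmem173fl/fl libraries were of the second kind, so each comparison is also given without the other 3.

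Each ribosome holds 1 copy of nearly every one of these proteins, and surplus protein is degraded. Ribosomal protein mRNAs are among the most abundant of any cell, and their amount follows growth and proliferation. Most of them begin with a run of pyrimidines directly at the cap (the 5′ terminal oligopyrimidine motif), through which mTOR and Larp1 control their translation. In the colon the rapidly dividing crypt cells make many ribosomes.

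The start windows of 9 of the 11 members that changed with DSS (Rpl23a and Rps29 are not shown), and of the pair Rps27 and Rps27rt, are given because the pyrimidine run at the start is the sequence feature that these genes are known to share. Each line holds 30 bases of GRCm38.p6 from RefSeq, 10 before the annotated start and 20 from it, 5′ to 3′ on the gene's strand, with the longest pyrimidine run in capitals (the first where runs tie, as in Rps27rt, whose second run of the same length is CTTTCC).
Rps9, chr7:3704031-3704060 (+): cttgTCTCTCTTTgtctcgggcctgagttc
Rpl28, chr7:4792955-4792984 (+): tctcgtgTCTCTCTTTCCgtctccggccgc
Rpl38, chr11:114668570-114668599 (+): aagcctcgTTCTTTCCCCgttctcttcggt
Rps15, chr10:80292421-80292450 (+): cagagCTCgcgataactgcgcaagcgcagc
Rps26, chr10:128626487-128626516 (-): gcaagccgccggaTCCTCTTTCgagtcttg
Rps12, chr10:23787190-23787219 (-): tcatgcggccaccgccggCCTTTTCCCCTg
Rpl26, chr11:68901556-68901585 (+): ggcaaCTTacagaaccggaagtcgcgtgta
Rpl22, chr4:152325716-152325745 (+): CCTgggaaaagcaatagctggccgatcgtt
Rps27l, chr9:66946076-66946105 (+): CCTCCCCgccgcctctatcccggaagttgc
Rps27, chr3:90213629-90213658 (-): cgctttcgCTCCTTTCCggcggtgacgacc
Rps27rt, chr9:114982720-114982749 (-): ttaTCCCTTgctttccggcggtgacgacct

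RefSeq starts were found for 66 members. A run of at least 5 pyrimidines (C or T, gene strand) began exactly at the annotated start in 16 of the 66 members (24.2%) and in 4.41% of 27025 promoters of all genes. A run of at least 8 within the 30 bases was present in 21 members (31.8%) against 11.2% of all promoters. The letters CTTTCC, which can lie inside such a run, were in the window of 10 members (15.2%) and of 1.27% of all promoters, and on either strand of the full 300 bases in 33 members (50%) and 26.3%. Long runs occurred in some members of both directions of change, and short ones did too. Rpl28 and Rps9, which rose with DSS, have runs of 11 and 9, and Rps12 and Rps26, which fell, have runs of 11 and 9 as well. Rpl38, which rose, has a run of 10, and Rps27l, which fell, has 7. In Rps15, which rose, and in Rpl26 and Rpl22, which fell, the longest run is 3. The RefSeq starts of Rps15, Rpl26 and Rpl22 lie 22, 17 and 16 bases upstream of the gene in the deposited gene table. Their windows therefore hold mostly or only sequence outside that gene. The start used for Rps26 lies 241 bases inside its gene. Annotated starts need not be the true cap sites, so these are descriptions of the annotation.

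Levels per transcript length spanned a wide range, while the ribosome uses the proteins in like numbers. FPKM is the count per kilobase of the length in the table, scaled to the library's depth. Over the 77 subunit genes the mean FPKM of 12 libraries had a median of 110.7, from 1.19 for Rpl24 to 937 for Rplp1. The highest 5 were Rplp1 (937), Rplp0 (699), Rpl4 (452), Rps3a1 (408) and Rps15 (357). Rplp1 and Rplp0 form the stalk of the large subunit that recruits translation factors, Rpl4 lines the exit tunnel, and Rps3a1 and Rps15 belong to the small subunit. Rplp1 ran from 678 to 1237 FPKM over the libraries and Rplp0 from 458 to 875, so these neighbours overlapped.

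**Figure D1:**
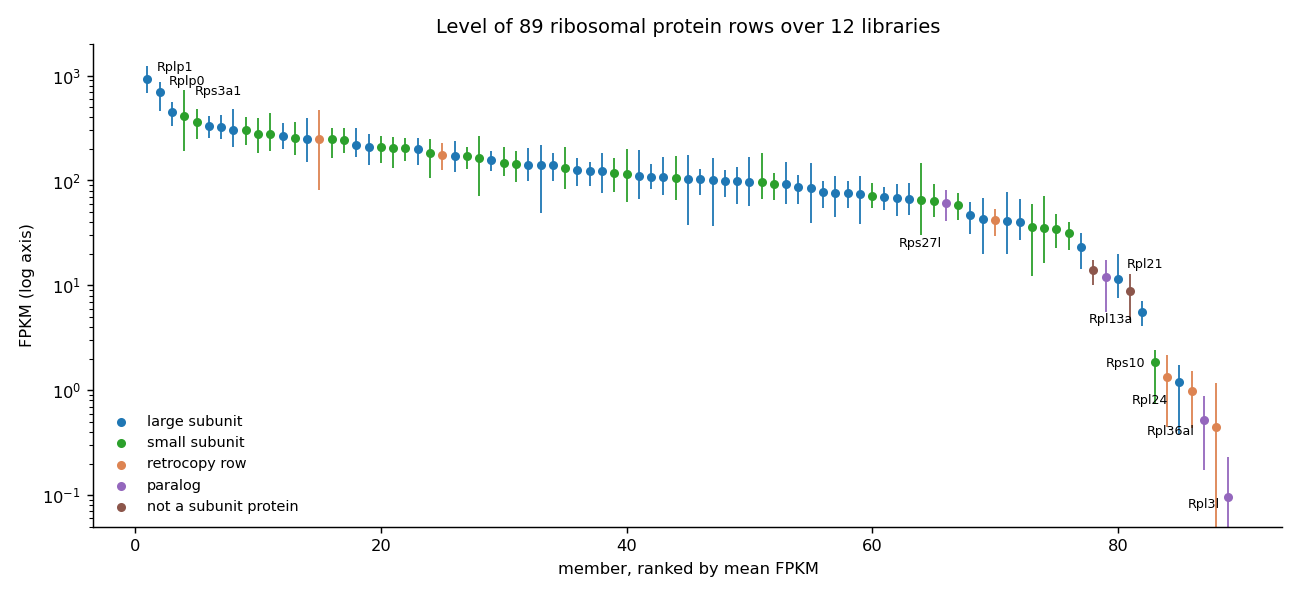
FPKM (log axis) of the 89 rows that passed the filter, ranked by their mean over 12 libraries. Points are means, lines run from the lowest to the highest library, and a line reaching the lower edge marks a library at 0. Rplp1 leads at 937 FPKM, and Rpl13a, Rps10 and Rpl24 lie far below them.

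The lowest 5 that passed the filter were Rpl3l (0.0963), Rpl36a-ps1 (0.448), Rpl36al (0.519), Rpl10-ps3 (0.975) and Rpl24 (1.19). Rpl3l, a paralog of Rpl3 known from striated muscle, had 32 counts in all 12 libraries together. Among subunit genes, Rpl24, Rps10 (1.86) and Rpl13a (5.55) stood lowest. For each of these 3 genes, and for Rpl36al, the table holds a second row on the same strand that overlaps the gene. The second rows (Gm28037, RPS10-NUDT3, Gm45713 and Gm49383) had 0 counts in the 12 libraries, as had Gm20388, which covers Rpl13 with 71720 counts. Of the 94 rows, 6 overlap another row on the same strand, small RNAs aside, and 23 only on the opposite strand. How reads on overlapping rows were counted was not stated, so the level of these genes is uncertain, and its link with the overlap was not tested.

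The length in the table exceeded that of the principal GENCODE transcript by a factor of 1.0 to 9.8 over the 77 subunit genes (median 2.11), which lowers FPKM by the same factor. Rps15a, with the factor 9.8, ranked 76th by FPKM at 31.4 and 33rd by CPM per kilobase of its mRNA. Rplp1 and Rplp0 kept ranks 1 and 2 by both lengths, and Rpl10 moved from 12 to 3. Differences between libraries are not touched by the length.

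Several members have copies in the genome that encode the same bases, and the split of reads between them varied between libraries. The coding sequences of Rps27 and of its intronless copy Rps27rt are identical over 252 of 252 bases, while the paralog Rps27l, a target of p53, differs from Rps27 at 60. The sequences are shown without the stop codon, from GENCODE vM21 transcripts, with the bases of Rps27l that differ from Rps27 in capitals.
Rps27 and Rps27rt: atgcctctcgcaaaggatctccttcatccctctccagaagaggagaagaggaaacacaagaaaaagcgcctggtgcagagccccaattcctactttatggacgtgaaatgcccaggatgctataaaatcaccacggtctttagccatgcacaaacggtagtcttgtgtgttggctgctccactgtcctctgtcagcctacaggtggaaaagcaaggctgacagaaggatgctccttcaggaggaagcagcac
Rps27l: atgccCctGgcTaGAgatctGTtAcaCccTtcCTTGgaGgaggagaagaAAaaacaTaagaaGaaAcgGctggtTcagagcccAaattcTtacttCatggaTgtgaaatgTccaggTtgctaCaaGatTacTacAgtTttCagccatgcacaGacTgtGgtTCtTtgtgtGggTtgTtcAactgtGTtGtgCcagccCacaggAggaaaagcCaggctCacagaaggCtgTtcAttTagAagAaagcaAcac

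Rps27 was at 137, 137 and 174 CPM in untreated Tmem173fl/fl libraries, 165, 173 and 219.5 in untreated Tmem173iΔmye, 79.97, 246 and 73.7 in colitic Tmem173fl/fl and 165, 219 and 287 in colitic Tmem173iΔmye libraries. Rps27rt was at 161, 75.5 and 99.6, then 41.4, 158 and 30.8, then 134, 42.2 and 172, and last 30.6, 45.7 and 149.8 CPM in the same order. In colitic Tmem173fl/fl mice the library with the most Rps27 had the least Rps27rt, and the copy held from 14.7% to 70.0% of the sum of both. The coefficient of variation (CV) between libraries of a group was 40.55% for Rps27 and 72.03% for Rps27rt, and 26.49% for their sum. Neither row was called in any comparison by the main test. Without colitic Tmem173fl/fl replicate 2 Rps27 was called lower with DSS in that genotype (-0.91, adjusted p = 0.00214, edgeR). Rpl17 was called lower in the same fit (-0.66, adjusted p = 0.043, edgeR). In colitic replicates 1 and 3, which that fit keeps, Rps27rt held 62.7% and 70.0% of the sum with Rps27. This sum was 214 and 246 CPM there, and 298, 212 and 274 CPM in the untreated libraries. Rps12 and Rps12-ps3 also share all 396 coding bases, Rpl10 and Rpl10-ps3 all 642, and Rpl9 and Rpl9-ps6 differ at 1 of 576. Rps12-ps3 held from 23.3% to 36.3% of the sum with Rps12, a steadier share than that of Rps27rt, and Rpl10-ps3 had only 145 counts in the 12 libraries.

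**Figure D2:**
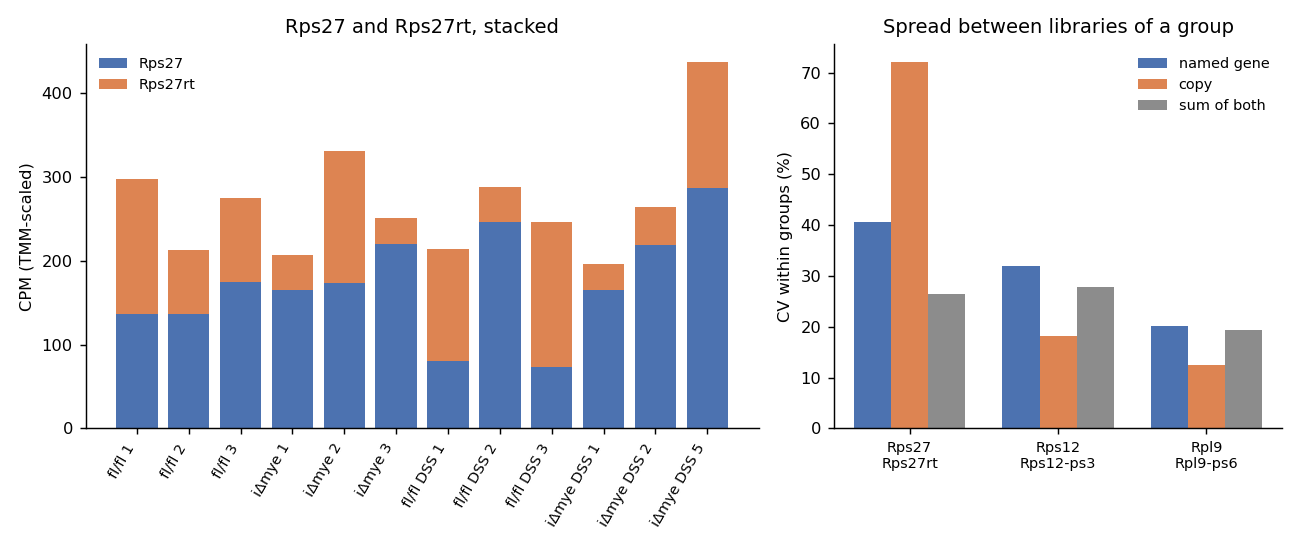
Left, CPM of Rps27 and Rps27rt stacked for each library, and right, the CV within groups (%) of a gene, of its copy and of the sum of both. The share of Rps27rt changes from library to library, and its CV of 72.03% falls to 26.49% in the sum.

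The members together took between 1.46% and 2.73% of a library's counts. Every colitic Tmem173fl/fl library lay above every untreated one of that genotype, while the Tmem173iΔmye groups overlapped. The separation was lost without mitochondrially encoded and immunoglobulin genes, when untreated Tmem173fl/fl replicate 3 was at 2.14% and colitic replicate 1 at 2.13%. The mitochondrially encoded share was 3.39% to 5.0% of counts in untreated and 2.03% to 2.73% in colitic libraries of that genotype. In untreated Tmem173fl/fl mice the share was 1.98%, 1.90% and 2.02%, with a mean of 1.97% ± 0.066 (SD, n = 3). In untreated Tmem173iΔmye mice it was 1.90%, 2.37% and 2.42% (2.23% ± 0.287, n = 3). In colitic Tmem173fl/fl mice it was 2.06%, 2.31% and 2.15% (2.17% ± 0.127, n = 3), and in colitic Tmem173iΔmye mice 1.46%, 1.75% and 2.73% (1.98% ± 0.668, n = 3). The last group held both the lowest and the highest library of the series, a ratio of 1.88.

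The level of the 77 subunit genes was also described within each library. For each gene the log2 CPM was set against its own mean over 12 libraries, and the median of these deviations was taken. It was 0.07, -0.08 and 0.03 in untreated Tmem173fl/fl, -0.09, 0.25 and 0.33 in untreated Tmem173iΔmye, -0.13, 0.00 and -0.02 in colitic Tmem173fl/fl, and -0.52, -0.20 and 0.40 in colitic Tmem173iΔmye libraries. In colitic Tmem173iΔmye replicate 1 only 2 of the 77 genes were above their own mean, in replicate 2 13, and in replicate 5 72. Untreated Tmem173iΔmye replicates 2 and 3 had 71 and 69 above, and the other 7 libraries between 20 and 52. Replicate 1 was also the library with the most pancreas RNA (10 genes such as Prss2 and Cela1 at 11880 CPM in sum, against 107.2 to 9441 in the others), and replicate 5 had the largest mitochondrially encoded share (6.62% of counts, against 2.03% to 5.0%). The part of either in the ribosomal protein level was not tested.

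**Figure D3:**
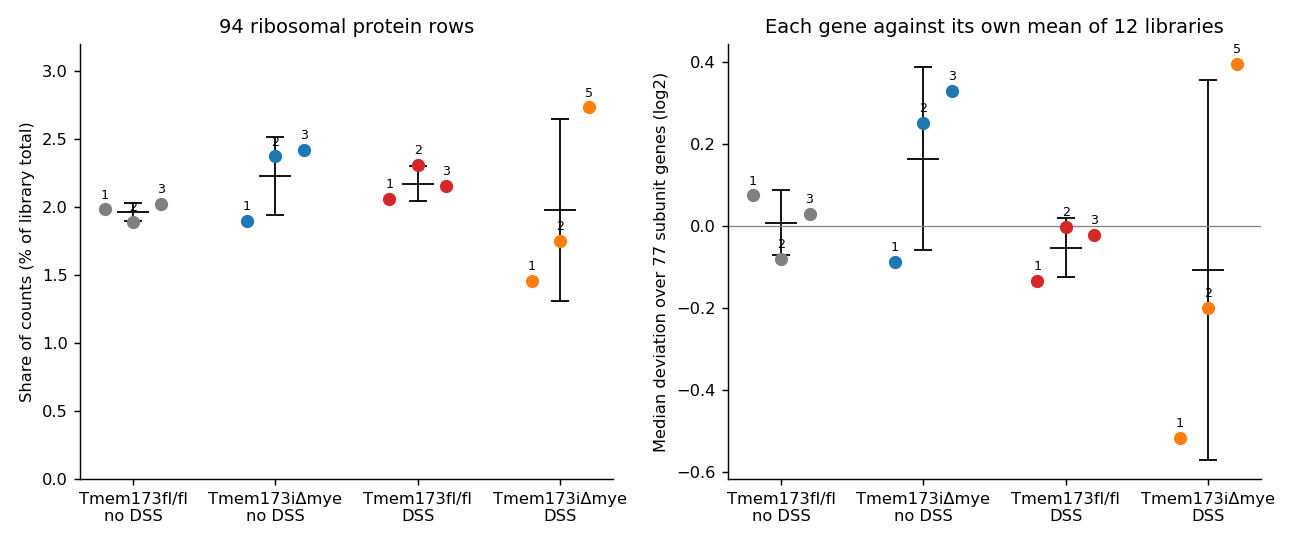
Left, the share of counts in the 94 rows (% of the library total), and right, the median log2 deviation of the 77 subunit genes from their own means, for each library by group and replicate number. Horizontal marks are means and bars SD (n = 3). The libraries of colitic Tmem173iΔmye mice span the whole range, from 1.46% to 2.73%.

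Colitis in Tmem173fl/fl mice left most ribosomal protein mRNAs near their untreated level, while a few rose or fell by less than 2-fold. Called members were 11 of 89 (12.4%), 6 higher and 5 lower, whereas 35.4% of all 24102 genes tested were called (19.5% higher and 16% lower) by edgeR's quasi-likelihood test at a Benjamini-Hochberg adjusted p under 0.05. None of the 89 reached an absolute log2 fold change of 1 as well, against 22.5% of all genes, and 18 of the 89 had an unadjusted p under 0.05 against 44.5%. The median log2 fold change of the members was 0.01 and that of all genes 0.03. The interquartile range was 0.42 for the members and 1.49 for all genes, and 76 of 89 members lay within 0.5 of 0 against 9266 of 24102 genes. The large subunit (5 of 46 called, median 0.00) and the small subunit (5 of 31 called, median -0.01) had a median standard error of 0.15 each. The groups did not overlap for 10 members that were higher and 26 that were lower with DSS, against 23.9% and 25.4% of all genes.

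The split of these calls depended on the scaling. With the library total alone, which moved the median of all genes from 0.03 to 0.16, 13 members were called higher and 3 lower (8421 of all genes called), and with upper quartile scaling 5 were higher and 9 lower (8849 of all genes). Without colitic Tmem173fl/fl replicate 1, a library with 9441 CPM of pancreas genes, 4 members were called (3 higher and 1 lower, with 6604 of all genes called in place of 8544), and without untreated replicate 3, which leaves only libraries with Y-linked RNA, there were 6 (3 higher and 3 lower, with 7186 of all genes called). These 6 were Rps9, Rpl28, Rps29, Rps26, Rps12 and Rps27l, all among the 11 called with every library.

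**Figure D4:**
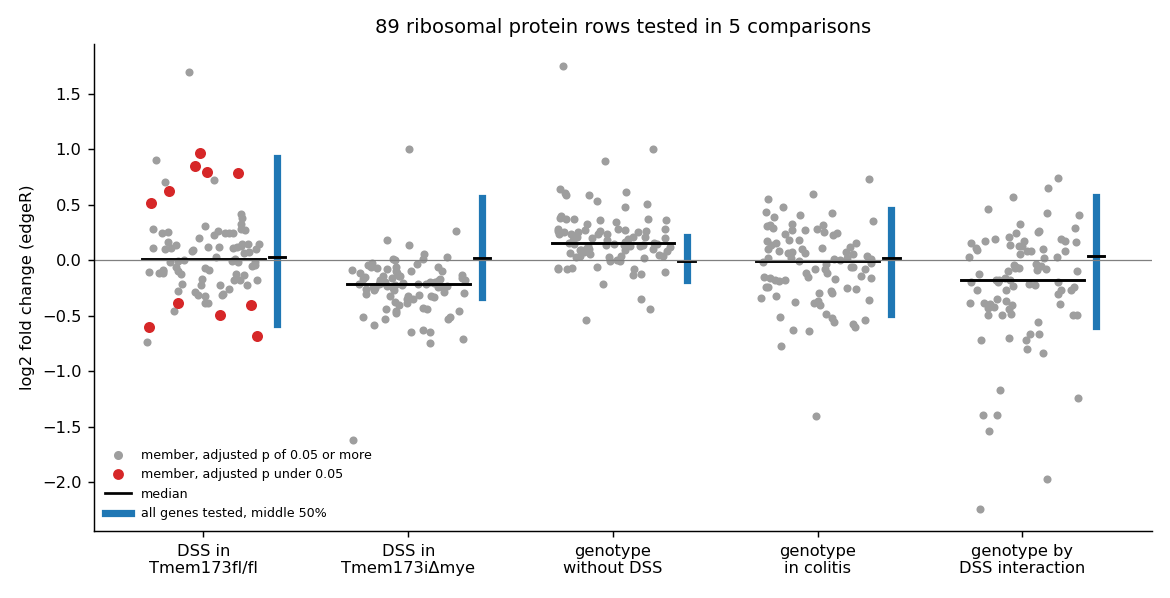
log2 fold change of the 89 rows in 5 comparisons. Red points have an adjusted p under 0.05, black lines are medians of the members and of all genes tested, and blue bars span the middle 50% of all genes. Called members occur only with DSS in Tmem173fl/fl mice, 6 above and 5 below 0.

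The 6 members that rose belong to both subunits. Rpl23a, which sits at the exit of the tunnel where the nascent chain emerges, was at 125, 43.05 and 65.9 CPM without DSS and at 142, 148 and 145 with it. Its log2 fold change was 0.96 ± 0.31 (SE, adjusted p = 0.0363, edgeR, n = 3 per group), and the untreated libraries differed among each other far more than the colitic ones. It was 1.48 without untreated replicate 1, and it was no longer called without untreated replicate 2 (0.67) or 3 (0.86) or without colitic replicate 1 (0.96) or 3 (0.95), with adjusted p from 0.0508 to 0.131 (edgeR). Rpl38, whose loss alters the translation of Hox mRNAs and the skeleton in mice, went from 62.0, 41.5 and 25.99 CPM to 69.7, 80.8 and 70.95 (0.85 ± 0.26, adjusted p = 0.0265, edgeR). Rpl28 of the large subunit went from 229.9, 153 and 143 to 286, 270.1 and 313 CPM (0.80 ± 0.19, adjusted p = 0.00939, edgeR). In all of these genes every colitic library lay above every untreated one, with untreated replicate 1 closest to the colitic libraries.

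In the small subunit, Rps29, a protein of its head mutated in some patients with Diamond-Blackfan anaemia, went from 83.85, 56.8 and 44.3 CPM to 92.9, 110.4 and 100.2 with DSS (0.79 ± 0.21, adjusted p = 0.0151, edgeR). Rps9, which binds early in assembly, went from 341, 341 and 282 to 449, 517 and 453 CPM (0.63 ± 0.15, adjusted p = 0.0079, edgeR). Rps15 went from 233, 189 and 161 to 259.5, 273 and 262 CPM (0.52 ± 0.16, adjusted p = 0.0302, edgeR). None of these groups overlapped. Of the 6, Rpl28 and Rps9 were called under all 18 alternatives without a fold minimum, Rps29 under 15, Rpl23a under 12, Rpl38 under 11 and Rps15 under 10. Calls ended with 1 library left out in Rps29 (0.72 without untreated replicate 2), in Rpl38 without untreated replicate 2 or 3 or colitic replicate 1 or 2 (0.59 to 0.87), and in Rps15 without any but untreated replicate 1 (0.41 to 0.51).

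The 5 members that fell include the subunit genes Rps26, Rps12, Rpl26 and Rpl22 and the paralog Rps27l. Rps26, which lies at the mRNA exit channel and is mutated in Diamond-Blackfan anaemia, went from 301.5, 358 and 338 CPM to 198.5, 185.5 and 207, a log2 fold change of -0.69 ± 0.14 (adjusted p = 0.00362, edgeR, n = 3 per group). It had the lowest adjusted p of the members and was called under all 18 alternatives without a fold minimum. Rps27l went from 66.65, 52.7 and 55.2 to 34.1, 42.3 and 33.3 CPM (-0.60 ± 0.15, adjusted p = 0.0121, edgeR). Rps12 of the small subunit went from 212, 215 and 228 to 148, 142.5 and 153 CPM (-0.49 ± 0.13, adjusted p = 0.0135, edgeR). Added to its identical copy Rps12-ps3 it gave -0.39 ± 0.13 with an adjusted p of 0.0438 (edgeR), against 0.000578 to 0.178 over the alternatives for Rps12 other than leaving out a library.

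Rpl26, which regulates p53 translation, went from 278, 279 and 288 CPM to 205, 206 and 197 (-0.41 ± 0.13, adjusted p = 0.0343, edgeR). Rpl22, known for its role in T cell development, went from 122, 126 and 133 to 90.5, 89.85 and 98.4 CPM (-0.38 ± 0.12, adjusted p = 0.035, edgeR). The libraries of either group lay close together in both genes, and the groups did not overlap in any of the 5 that fell. Rpl26 stayed called in 8 and Rpl22 in 9 of the 18 alternatives, Rps12 in 16 and Rps27l in 17, and none of the 11 was called with a fold minimum. The call ended without colitic replicate 1 in Rps12 (-0.51) and Rps27l (-0.57), without any 1 of the 6 libraries in Rpl26 (-0.44 to -0.38), and without untreated replicate 2 or 3 or colitic replicate 1 or 2 in Rpl22 (-0.40 to -0.34). The paralog of Rpl22, Rpl22l1, was at 28.2, 11.4 and 23.8 CPM without DSS and 21.5, 23.3 and 22.2 with it, and did not pass (0.15 ± 0.28, adjusted p = 0.725, edgeR). Over these 11 members the lowest count in a library was 289 (Rpl38) and the highest 10921 (Rps9).

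**Figure D5:**
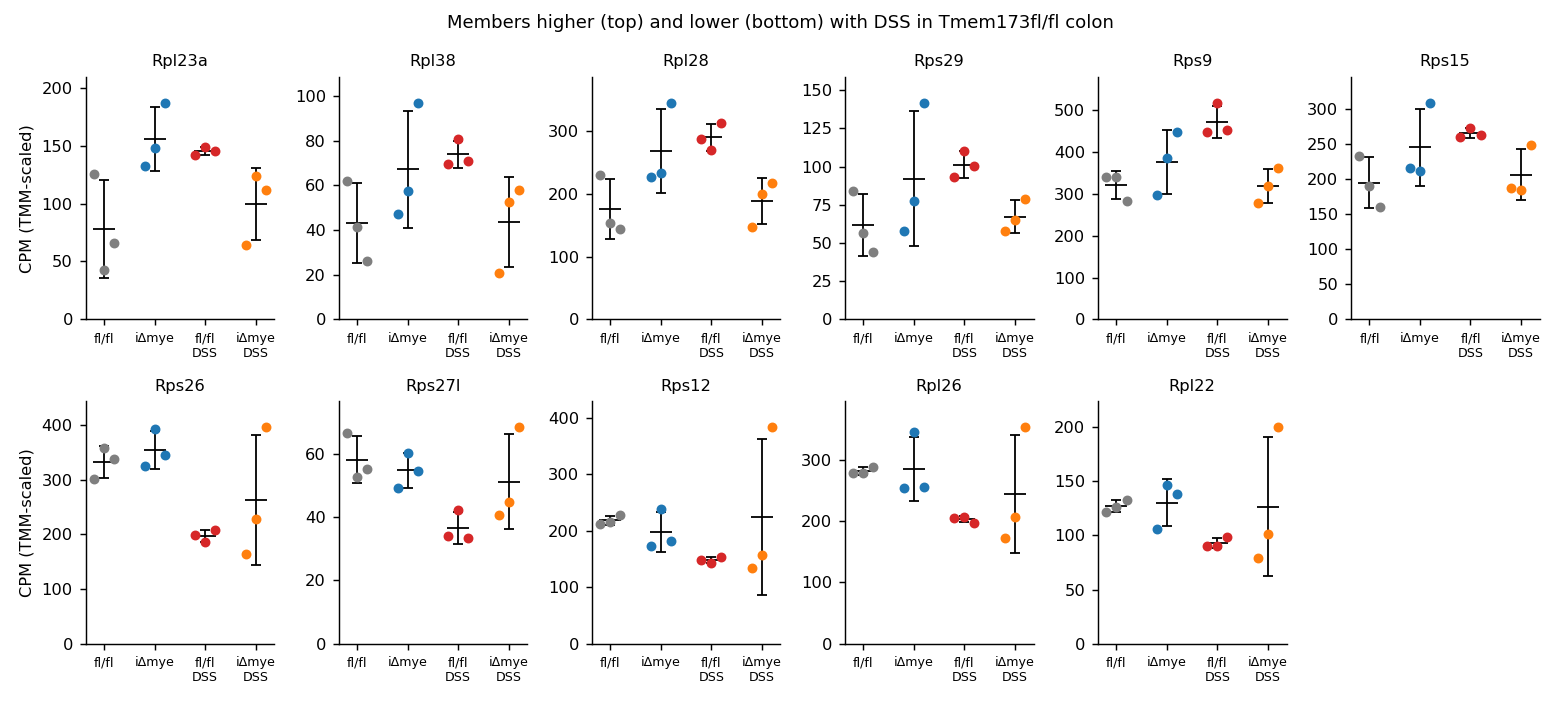
CPM per library of the 11 members called with DSS in Tmem173fl/fl mice, 6 higher in the top row and 5 lower in the bottom row, with all 4 groups shown. Horizontal marks are means and bars SD (n = 3), and each axis starts at 0. In colitic Tmem173iΔmye mice the genes of the bottom row spread widely, and Rps12 runs from 135 to 383 CPM.

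The other genes of translation were taken from lists, by the same test, beside 19.5% higher and 16% lower over all genes. Of 3 ribosomal proteins with other names 0 were called with DSS in Tmem173fl/fl mice (median -0.05). Among them, Fau and Rack1 were at 0.22 ± 0.16 and -0.09 ± 0.14 (adjusted p of 0.314 and 0.637, edgeR). Of 78 mitochondrial ribosomal protein genes (Mrpl and Mrps), which serve the separate ribosome of the organelle, 77 were tested, and 35 fell and 0 rose (median -0.46). Mrpl35 (-1.03, adjusted p = 0.000469, edgeR) and Mrps36 (-0.99, adjusted p = 0.00301, edgeR) had the largest falls of the list. Of 40 initiation factors 9 fell and 1 rose, of 15 elongation factors 1 fell and 2 rose, and of 83 ribosome biogenesis factors 8 fell and 8 rose, which is 25%, 20% and 19.3% called against 35.4% of all genes. Utp20, a factor of small subunit processing, fell by 1.79 on the log2 scale, and Eef1a2, a tissue-restricted elongation factor, rose by 1.91. Of 29 regulators of ribosomal protein synthesis 6 fell and 2 rose, among them Eif4ebp1, the mTOR target that blocks cap binding (1.84), while Myc itself was at 0.11 ± 0.14 and did not pass (adjusted p = 0.581, edgeR). Of 13 further abundant mRNAs known for translational control, such as Tpt1, 3 fell and 1, Vim, rose.

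Marker genes of several cell types moved at the same time. All 15 cycling cell genes fell (1178 to 1511 CPM in sum without DSS, 257 to 468.7 with it) and 12 of 15 epithelial markers fell (23960 to 36600 against 12700 to 20230), 1 rising, while all 12 neutrophil markers rose (47.79 to 108.3 against 576.8 to 950.6). All 10 fibroblast genes rose too (1357 to 1577 against 8577 to 10770 CPM in sum), as did all 12 monocyte and macrophage and all 6 red blood cell genes. Among 12 T cell genes 2 rose and 1 fell, and among 12 B and plasma cell genes 3 rose and 1 fell. Smooth muscle had 2 higher and 1 lower of 10, and skeletal and heart muscle 2 higher and 2 lower of 7 tested. Of 10 pancreas genes 0 were called. Over all genes 19.5% were called higher and 16% lower. Between genotypes in colitis, 7 of 10 fibroblast, 7 of 12 neutrophil, 2 of 12 monocyte and macrophage and 6 of 6 red blood cell genes were lower in Tmem173iΔmye mice, and 2 of 15 epithelial markers were higher. Over all genes 2.15% were lower and 0.954% higher. The cycling cell, T cell, B and plasma cell, smooth muscle, pancreas, and skeletal and heart muscle lists had 0 called in that comparison. In these lists no gene was at 0 in every library, apart from 1 of the skeletal and heart muscle list. In bulk tissue fewer cells of a type and less RNA per cell cannot be told apart, and the part of these shifts in the values of single members was not tested.

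In Tmem173iΔmye mice no member was called between colitic and untreated colon (0 of 89 by edgeR, 3 with an unadjusted p under 0.05). Of all genes 2.17% were called, 1.53% higher and 0.639% lower, 2.08% with the fold minimum, and 15.6% had an unadjusted p under 0.05. DESeq2 also called 0 (1456 of all genes), as did limma on log2(FPKM + 0.1) (41) and on log2(FPKM + 1) (79). The members lay mostly below 0, with a median of -0.21 against 0.02 for all genes, and 80 of 89 were negative against 11597 of 24102. In the same comparison 7 of 12 neutrophil, 3 of 12 monocyte and macrophage and 1 of 10 fibroblast genes rose. Of 15 cycling cell genes 5 fell, and of 15 epithelial markers 1 fell. The part of these shifts in the members' values was not tested. The groups did not overlap for 0 members that were higher and 6 that were lower (12.1% and 9.41% of all genes). Rpl23a had the lowest p (-0.65 ± 0.26, adjusted p = 0.265, edgeR), with 133, 148 and 187 CPM without DSS and 64.2, 123.5 and 111 with it. Rps27a, whose protein is made fused to ubiquitin, had the largest positive estimate (1.0 ± 0.46, adjusted p = 0.326, edgeR), at 68.5, 109.5 and 106.5 CPM without DSS and 60.2, 216 and 294 with it.

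The value rested on single libraries. Without colitic replicate 5, the library with Xist, the median fell to -0.50, and 4 members were called, all lower: Rps13 (-1.23), Rps3a1 (-1.07), Rpl15 (-0.90) and Rps26 (-0.83), with adjusted p from 0.0303 to 0.0498 (edgeR). Of all genes 1743 of 24102 were called in that fit, in place of 522. Without colitic replicate 1 the median was -0.03 and only Rps27a was called, higher (1.43, adjusted p = 0.034, edgeR), with 239 of all genes called. Without untreated replicate 2 the median was -0.12 and without untreated replicate 3 -0.14, with 0 members called (51 and 57 of all genes). In the 4 libraries with Y-linked RNA alone it was -0.43, with 0 members and 632 of all genes called. Rps13, Rps3a1, Rpl15, Rps26 and Rps27a were named here after their values were seen.

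Without DSS no member passed the test between genotypes (0 of 89 by edgeR, and 0 by DESeq2 and both limma fits), and 0.0% of all genes were called. An unadjusted p under 0.05 was reached by 11 members and by 2.99% of all genes. Without Tmem173fl/fl replicate 1 only Rpl23a was called (1.52, adjusted p = 0.0475, edgeR), with 6 of all genes called. The estimates were mostly positive in Tmem173iΔmye mice, 74 of 89 against 11804 of 24102 genes, with a median of 0.16 against 0.00 for all genes. The median was 0.28 without Tmem173iΔmye replicate 1 and 0.09 without its replicate 3, and 0.09 in the 4 libraries with Y-linked RNA alone. The groups did not overlap for 10 members that were higher and 0 that were lower, where 3.66% and 3.68% of all genes did so. Rpl23a (1.005 ± 0.29, edgeR, adjusted p = 1.0) had the lowest p, at 125, 43.05 and 65.9 CPM in Tmem173fl/fl and 133, 148 and 187 in Tmem173iΔmye libraries. Rps13 (0.53 ± 0.16) and Rpl36a (0.51 ± 0.16) followed, both with an adjusted p of 1.0 (edgeR). The library medians given above show that replicates 2 and 3 carried the higher level and replicate 1 did not.

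In colitis no member passed the test between genotypes (0 of 89 by edgeR, against 3.11% of all genes, 0.954% higher and 2.15% lower, and 2.81% with the fold minimum). DESeq2 called 1, Rps9 (-0.545, adjusted p = 0.0446 by DESeq2, and 0.144 by edgeR), with 2379 of all genes called. An unadjusted p under 0.05 was reached by 5 members and by 20.2% of all genes. The median was 0.00 against 0.02 for all genes, with 44 positive and 45 negative estimates and a median standard error of 0.26. The median moved to -0.31 without Tmem173iΔmye replicate 5, the only library of this comparison with Xist, and to 0.17 without replicate 1. With any 1 library left out, replicate 5 included, 0 members were called (edgeR). The groups did not overlap for 10 members lower and 0 higher in Tmem173iΔmye mice (14.8% and 12% of all genes). The lowest p belonged to Rps29, at 92.9, 110.4 and 100.2 CPM in Tmem173fl/fl and 57.8, 64.8 and 78.9 in Tmem173iΔmye libraries (-0.60 ± 0.18, adjusted p = 0.108, edgeR). Rpl28 (-0.63 ± 0.20, adjusted p = 0.128) and Rps9 (-0.57 ± 0.19, adjusted p = 0.144, edgeR) came next.

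The check of the targeted gene was weak in whole colon. Tmem173 was at 24.5, 14.35 and 22.9 CPM in untreated Tmem173fl/fl and 17.2, 14.6 and 21.3 in untreated Tmem173iΔmye libraries, and at 42.4, 43.98 and 37.65 against 47.8, 23.8 and 31.1 in colitis. Neither difference passed (-0.21 and -0.28, adjusted p of 1.0 and 0.602, edgeR). With 1 library left out, the first ran from -0.06 (without Tmem173fl/fl replicate 1) to -0.41 (without its replicate 2) and the second from -0.06 (without Tmem173iΔmye replicate 2) to -0.61 (without its replicate 1). Lyz2, whose name the Cre line carries, was at 150.0, 152 and 277 against 94.4, 76.4 and 115 CPM without DSS (-1.01, adjusted p = 1.0, edgeR; -0.66 without Tmem173fl/fl replicate 3) and at 477, 505 and 336 against 319, 231 and 357 in colitis (-0.54, adjusted p = 0.266, edgeR).

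The difference between the 2 DSS responses was tested directly in all 12 libraries, and 0 of 89 members passed (edgeR, 10 with an unadjusted p under 0.05 against 18.1% of all genes). Of all genes 2.65% were called, 0.987% higher and 1.66% lower, and 2.55% with the fold minimum. The lowest adjusted p was that of Rpl28 at 0.0567, with an interaction of -1.24 ± 0.32 on the log2 scale, followed by Rpl23a (-1.54 ± 0.46, adjusted p = 0.0892) and Rps9 (-0.80 ± 0.25, adjusted p = 0.114, edgeR). Rpl28 was at 226, 233 and 344 CPM without DSS and 147, 200.2 and 217 with DSS in Tmem173iΔmye mice, beside its rise in Tmem173fl/fl mice given above. Over the alternatives its adjusted p ran from 0.00491 to 0.164, and it passed with DESeq2, which also called Rpl23a and Rps9 and 1657 of all genes. Of 12 alternatives other than leaving out a library, Rpl28 passed in 5. The others of these were DESeq2 size factors (adjusted p = 0.0493), the library total (0.0267) and no filter (0.0103) in edgeR, and limma on log2(FPKM + 1) (0.0492). Leaving out untreated Tmem173fl/fl replicate 1 called Rpl28 and Rpl23a (268 of all genes), and leaving out colitic Tmem173iΔmye replicate 5 called Rpl28 (573 of all genes). In the 9 libraries with Y-linked RNA alone Rpl28 was at -1.03 and did not pass (adjusted p = 0.164, edgeR). The median interaction of the members was -0.18 against 0.04 for all genes, and -0.45 in those 9 libraries. With 1 library left out this median ran from -0.468 to 0.016.

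The comparisons share libraries, so their values are given side by side only. The 6 members that rose with DSS in Tmem173fl/fl mice were at 0.52 to 0.96 there, at -0.65 to -0.24 with DSS in Tmem173iΔmye mice, at 0.24 to 1.005 for the genotype without DSS and at -0.77 to -0.37 for the genotype in colitis. The 5 that fell were at -0.69 to -0.38, at -0.44 to 0.18, at -0.13 to 0.10 and at 0.26 to 0.60 in the same order. With DSS in Tmem173iΔmye mice Rps26 was at 326, 393 and 345 CPM untreated and at 164, 229 and 396 colitic, and Rps12 at 174, 239 and 182 against 135, 157 and 383, the highest value being replicate 5 in both genes. The other lists of translation genes had 0 called of 77 mitochondrial ribosomal proteins, 0 of 40 initiation factors and 1 of 83 biogenesis factors (Utp20, -1.02, adjusted p = 0.0357, edgeR) with DSS in Tmem173iΔmye mice. The 15 elongation factors, 29 regulators and 13 further abundant mRNAs had 0 called as well, where 2.17% of all genes were called.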

How the data were processed

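Libraries were made from polyA RNA of the colon with the NEBNext Ultra kit, per the labels. The submitters' processing notes name CASAVA 1.8, fastp, HISAT2 2.0.5, featureCounts 1.5.0-p3, DESeq2 1.20.0 and the builds GRCm38 and mm10. The use of strand and of multiply mapped reads is not given in the sources used here. The authors deposited raw counts per gene and FPKM for each library, and 0 sample columns were unmapped. FPKM over the same value computed from counts, table lengths and library totals lay between 0.892 and 1.04. The 25 columns of the authors' own comparisons (fold changes, p-values and group means) were not used.

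Groups came from sample titles, where WT is Tmem173fl/fl and CRE is Tmem173iΔmye. Counts were tested with edgeR 4.0.16 (TMM, glmQLFit, glmQLFTest; R 4.3.3) on 24102 genes, with only the groups compared in each fit and all 4 in the interaction. Adjusted p-values are Benjamini-Hochberg over all genes tested. SE is the log2 fold change over the root of F. CPM were scaled over all 12 libraries, so their ratios can differ from the fitted folds by a constant. Alternatives were DESeq2 1.42.0, limma 3.58.1 on log2(FPKM + 0.1) and log2(FPKM + 1), other scalings, no filter, a replicate block, pseudogene rows added, libraries with Y-linked RNA alone and each library left out. One gene of a list is not reported here. Members and lists were chosen with earlier results of these data known. Members named by rule are up to 5 called with the highest and 5 with the lowest log2 fold change in each comparison, the 5 highest and 5 lowest by FPKM, paralogs, members of no subunit and those that failed the filter. Other members, such as the sixth that rose with DSS, copies and those with the lowest p where none was called, were named after their values were seen. The labels do not say that each library is 1 mouse, so p-values measure the spread between these samples. The tests were tried on simulated counts.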

Additional observations from a re-analysis of the deposited data

How the results depend on the processing

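The count of members called with DSS in Tmem173fl/fl mice (11, with 8544 of all genes called) became 6 with limma on log2(FPKM + 0.1) (7591 of all genes) and 5 in one fit of all 12 libraries (7714), ran from 4 to 12 with one library left out (6604 to 8301), and was 0 with a fold minimum, with or without adjustment of p (5422 and 6266). Under the other alternatives it ran from 10 to 16. The median log2 fold change (0.01) was -0.069 with upper quartile scaling and 0.15 with the library total alone. With DSS in Tmem173iΔmye mice the count of 0 (522 of all genes) ran from 0 to 4 with one library left out (51 to 1743) and was 0 otherwise apart from the replicate block, also with no filter (1120), DESeq2 (1456) and limma on log2(FPKM + 0.1) (41). For the genotype without DSS it was 2 with no filter on low values (Rpl23a and Rps28, with 87 of all genes), 1 by unadjusted p with a fold minimum (328) and 0 to 1 with one library left out (0 to 6). For the genotype in colitis it was 1 with DESeq2 (2379 of all genes, in place of 749). For the interaction it was 1 with DESeq2 size factors (658 of all genes, in place of 638), 1 with the library total (845), 5 with no filter (1283), 3 with DESeq2 (1657), 1 with limma on log2(FPKM + 1) (887), 5 by unadjusted p with a fold minimum (2747) and 0 to 2 with one library left out (268 to 1982), and its median ran from -0.468 to 0.016 with one library left out and was -0.446 in libraries with Y-linked RNA alone. The causes of these moves were not tested. None of the 11 called members changed direction under an alternative.

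Lyz2 for the genotype without DSS (-1.01) was called with no filter on low values (-1.01) and with the replicate block (-0.97). The share of counts in untreated Tmem173fl/fl mice (1.97%) was 2.05% with pseudogene rows added and 2.07% without mitochondrially encoded and immunoglobulin genes. Leaving out copies, paralogs and genes of no subunit, and adding identical copies to the member, were chosen after the data were seen, as were the fits of libraries with Y-linked RNA alone, and left 10 and 11 members called with DSS in Tmem173fl/fl mice.

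Replicate numbers do not pair the mice by the labels, and deviations of same-numbered libraries correlated from -0.215 to 0.225. With the replicate block the members called were 11 with DSS in Tmem173fl/fl mice, 4 with DSS in Tmem173iΔmye mice (Rps13, Rps3a1, Rps26 and Rps27rt), 3 for the genotype without DSS (Rpl23a, Rps28 and Rps27rt), 0 in colitis and 0 for the interaction, where 7449, 1695, 119, 849 and 592 of all genes were called. Colitic Tmem173iΔmye replicate 5 shares its number with no library, so a block leaves it without weight (and number 3 too, where only 1 of its libraries is in the fit). The members' median with DSS in Tmem173iΔmye mice was -0.213, -0.463 with the block and -0.495 without replicate 5. In the 4 libraries that the block compares, fitted without it, the median was -0.427, with 0 members and 632 of all genes called. Between colitic genotypes it was 0.00, -0.324 with the block and -0.311 without replicate 5, and for the interaction -0.176, -0.42 and -0.468.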
